A study of Homo sapiens with 54 samples.

Results

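HIF target genes outside glycolysis are genes switched on by hypoxia-inducible factors whose products do not belong to the glycolytic pathway. The 40 genes described here were chosen by name from common knowledge of HIF biology, with earlier results of these data known. Counts of members set beside shares of all genes are therefore descriptive. Each member was found once in every deposited table, as 40 of 60676 annotated genes. HIF is a pair of proteins, an alpha subunit that prolyl hydroxylases mark for destruction when oxygen is present and a stable ARNT partner. When the alpha subunit persists, the pair binds a short DNA core near its targets and raises genes for vessel growth, acid export, mitophagy, collagen crosslinking and histone demethylation. In neural tissue the programme is best known as a response to low oxygen.

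RNA-seq was measured in hMSN-like cells, which resemble the medium spiny neurons of the striatum and were differentiated from the human embryonic stem cell line H9, so that every culture shared 1 line. The 53 libraries analysed formed 18 conditions in 4 experiments. For 1 mM and for 1 µM dopamine, RNA was taken 1 h or 24 h after a single dose (Acute 1 h, Acute 24 h) or after the last of 5 daily doses (Chronic 1 h, Chronic 24 h), and each dose had its own PBS libraries. A time course took RNA 1 h after the last of 2, 3, 4 or 5 daily doses of 1 mM dopamine and had an ascorbic acid control (AA vehicle). The last experiment set 50 µM SKF82958, an agonist of D1-like dopamine receptors, and 50 µM quinpirole, an agonist of D2-like receptors, against water. Groups held 3 libraries, except 5 Day with 2, whose replicate 1 was not analysed here. By the study's methods dopamine was dissolved in ascorbic acid and acute cultures were treated at an earlier day than chronic ones, while the labels of the PBS libraries name PBS alone. Acute dosing replaced part of the medium, while in chronic dosing all of it was also replaced between doses. Dopamine, its solvent, medium change and culture age therefore cannot be told apart in the comparisons with PBS. The study calls its RNA-seq replicates independent, and since all came from 1 line, p-values measure the spread between libraries of that line.

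Exon reads per library ranged from 5755919 to 27702963, apart from quinpirole replicate 1 with 137051, in which 96.7% of gene reads lay in introns. That library stood apart, and agonist values are also given without it. Replicate 1 of 1 mM Acute 24 h held 1218 TPM of 10 immediate early genes in sum, against 172 and 153 TPM in the other libraries of its group. It also stood apart in cycling markers (147 TPM in sum against 506 and 491 TPM) and pan-neuronal markers (1623 TPM against 2893 and 2665 TPM). TPM is a level normalised for exon length and library size. Markers of striatal neurons were detected, with PPP1R1B (DARPP-32) at a median of 14.0 TPM over all libraries, and so were the cycling marker MKI67 at 76.0 TPM and the choroid plexus marker TTR at 1524 TPM. The microglial marker AIF1 was at 0 in 35 libraries. In bulk RNA, fewer cells of a type and less RNA per cell cannot be told apart.

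The core that HIF binds was looked for beside the members, since its presence does not depend on any expression value. RefSeq promoter windows of 300 bases (250 before the RefSeq start of the gene and 50 after it) were matched for 31 of the 40 members. Matching was by symbol or, where that failed, by Ensembl ID or synonym. ACGTG or GCGTG, on either strand, occurred in 26 of these 31 windows (83.9%) and in 48.4% of all 35116 RefSeq windows. The members were chosen as known HIF targets, so the higher share is not independent evidence. All RefSeq windows were not matched to the members in base composition. CACGTG holds the first core on both strands and so counts as 2 overlapping matches. Of the members that fell 1 h after a single 1 mM dose, 18 of 23 windows held a match, as did 8 of 8 windows of the other members. The 250 upstream bases are shown for the 4 members with a match that fell 1 h after a single dose in both dopamine experiments with the lowest p at 1 mM. Capitals mark the cores. In build GRCh38.p14 the windows lie at chr10:73772026-73772275 on the plus strand (FUT11), chr10:131981924-131982173 on the minus strand (BNIP3), chr5:173328415-173328664 on the minus strand (STC2) and chr3:122383932-122384181 on the plus strand (FAM162A).
FUT11: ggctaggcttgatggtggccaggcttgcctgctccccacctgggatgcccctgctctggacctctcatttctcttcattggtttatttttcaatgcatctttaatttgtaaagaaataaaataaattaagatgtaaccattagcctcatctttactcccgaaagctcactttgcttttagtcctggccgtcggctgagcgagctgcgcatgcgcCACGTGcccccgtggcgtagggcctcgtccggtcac
BNIP3: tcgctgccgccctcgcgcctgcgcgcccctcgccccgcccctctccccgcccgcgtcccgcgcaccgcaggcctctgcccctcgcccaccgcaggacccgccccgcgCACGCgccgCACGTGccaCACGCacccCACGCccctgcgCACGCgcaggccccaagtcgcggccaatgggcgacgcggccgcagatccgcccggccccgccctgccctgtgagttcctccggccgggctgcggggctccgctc
STC2: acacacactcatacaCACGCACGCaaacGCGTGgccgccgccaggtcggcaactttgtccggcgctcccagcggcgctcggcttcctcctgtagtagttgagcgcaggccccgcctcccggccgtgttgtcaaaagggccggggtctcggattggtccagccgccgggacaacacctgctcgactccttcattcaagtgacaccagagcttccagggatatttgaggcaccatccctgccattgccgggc
FAM162A: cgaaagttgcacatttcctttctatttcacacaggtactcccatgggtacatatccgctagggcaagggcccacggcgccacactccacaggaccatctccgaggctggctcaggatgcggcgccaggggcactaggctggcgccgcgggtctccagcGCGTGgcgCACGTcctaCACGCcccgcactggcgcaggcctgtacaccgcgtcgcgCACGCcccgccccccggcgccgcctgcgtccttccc
BNIP3 held 6 cores within these bases, FAM162A 4, STC2 3 and FUT11 2. In the annotation used for counting, STC2 and BNIP3 on the minus strand begin at 173329503 and 131982013, and FAM162A on the plus strand at 122384176. The STC2 window thus lies within the gene as annotated there, and the BNIP3 and FAM162A windows overlap theirs in part. A match describes letters and does not show binding.

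The members stood highest in the PBS libraries of the 1 mM experiment. Their mean log2(TPM + 1) was 5.42 ± 0.39 (SD, n = 3) there, with libraries between 5.00 and 5.76. It was 4.24 ± 0.36 (SD, n = 3) in the PBS libraries of the 1 µM experiment, 3.99 ± 0.12 (SD, n = 3) in AA vehicle and 3.91 ± 0.03 (SD, n = 3) in water. All libraries of the time course and the agonist experiment lay between 3.59 and 4.19, below every 1 mM PBS library. Gene by gene, and without quinpirole replicate 1, 32 of 40 members had their highest mean TPM of the 18 conditions in 1 mM PBS. The share of all genes highest in 1 mM PBS was not counted, so this is not shown to be particular to the members. In the 8 comparisons with PBS, 37 members were called lower at least once and LOXL2 higher once. EFNA1, a membrane-bound guidance ligand, and BHLHE41, a repressor related to BHLHE40, were called in none. The comparisons of each dose shared the same 3 PBS libraries, so their calls do not stand as separate evidence. The share of all genes called lower at least once was not counted. TPM of the dosed libraries lay wholly above PBS for 1 member at 1 mM Acute 24 h and 2 at 1 mM Chronic 1 h. At 1 µM this held for 1 member at Acute 1 h and 2 at Chronic 24 h, and in the other comparisons with PBS for 0. Shares of all genes wholly above PBS are not given here, and the paragraphs below give the lower side.

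**Figure D1:**
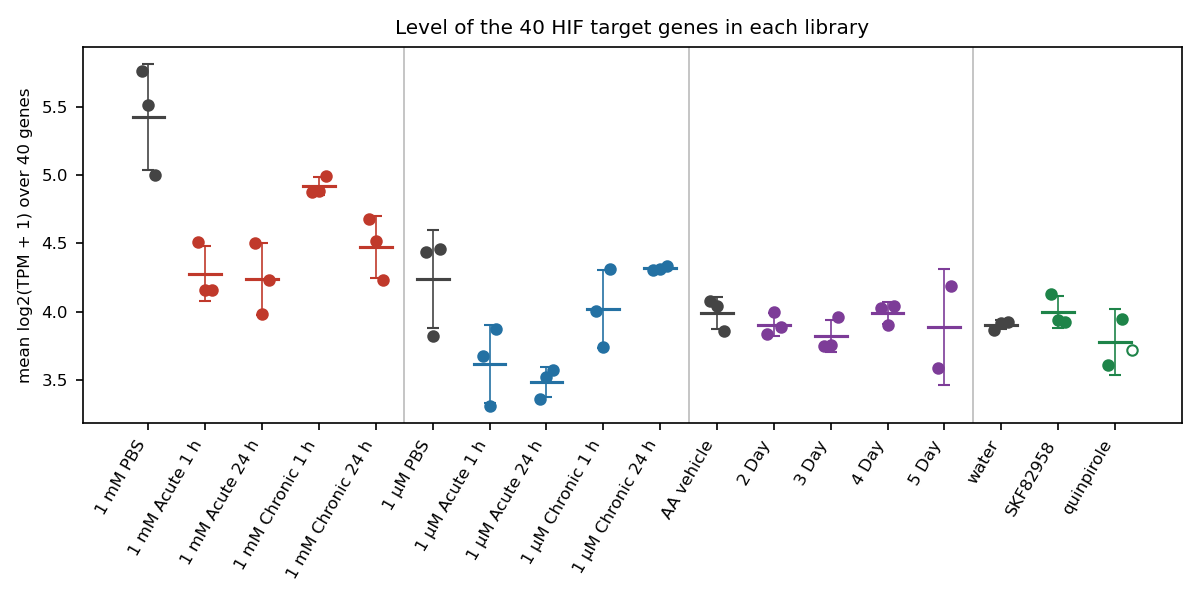
Mean log2(TPM + 1) over the 40 HIF target genes (y axis) in each library, by condition (x axis). Points are libraries, horizontal lines group means and bars SD, and the open circle is quinpirole replicate 1, left out of the mean; the 1 mM PBS libraries sit at 5.00 to 5.76 and the AA vehicle libraries at 3.86 to 4.08.

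The first comparison asked how these genes stood 1 h after a single 1 mM dose. At 1 mM Acute 1 h, 30 of 40 members fell and 0 rose at an adjusted p under 0.05, where 8.04% of all genes tested were called higher and 7.94% lower. The median log2 fold change (log2FC, given with its SE) was -1.04 over the members and 0.01 over all genes tested. TPM of the dosed libraries lay wholly below PBS for 36 of 40 members, against 30.1% of genes with a mean of at least 1 TPM. Immediate early genes moved the other way in the same libraries, from 158 to 160.5 TPM in sum in PBS to between 1384 and 1547 TPM, and intron reads fell from between 19.5% and 21.8% to between 12.3% and 13.2% of gene reads. Their part in the result was not tested.

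Among secreted signals and a receptor, 7 of 9 members fell. VEGFA, the main growth factor for blood vessels, was at 198, 178 and 114 TPM in PBS and at 34.7, 20.0 and 18.9 TPM at Acute 1 h (log2FC -2.67 ± 0.39, adjusted p = 0.00101). STC2, a secreted glycoprotein, stood at 86.1, 77.6 and 43.8 TPM in PBS and at 21.5, 9.90 and 10.3 TPM after the dose (log2FC -2.24 ± 0.34, adjusted p = 0.00128). In both genes every dosed library was below every PBS library. The vessel-widening peptide ADM, the apelin receptor ligand APLN, the calcium regulator STC1, the kisspeptin receptor KISS1R and the guidance ligand EFNA3 also fell, with log2FC of -2.38, -1.72, -1.06, -2.49 and -0.41. EFNA1 was at 9.61, 9.43 and 8.64 TPM in PBS and 10.3, 9.48 and 5.47 TPM after the dose and did not pass the test.

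Of the genes for pH and metabolite handling, 3 of 4 fell. CA9, a carbonic anhydrase of the cell surface, measured 29.98, 53.8 and 20.6 TPM in PBS and 3.63, 2.44 and 2.28 TPM at Acute 1 h (log2FC -3.56 ± 0.59, adjusted p = 0.0022). No library of one group came near the other, and its log2FC was the lowest of the 40. SLC16A3, the lactate and proton exporter MCT4, and AK4, an adenylate kinase of mitochondria, fell as well, with log2FC of -2.31 and -1.13. CA12, another carbonic anhydrase, was at 49.3, 50.0 and 56.1 TPM against 39.3, 42.0 and 37.2 TPM and did not pass.

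All 3 mitochondrial members fell. BNIP3, a receptor that marks mitochondria for removal, was at 289, 245 and 187 TPM in PBS and at 92.6, 51.7 and 44.8 TPM after dopamine (log2FC -1.86 ± 0.28, adjusted p = 0.00112). Its ranges were separate. Its relative BNIP3L and the mitochondrial protein FAM162A had log2FC of -0.69 and -1.28.

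Collagen and protein folding enzymes fell in 4 of 6 cases. PLOD2, a lysyl hydroxylase that prepares collagen for crosslinking, was at 45.4, 39.98 and 31.0 TPM in PBS and 22.5, 16.8 and 17.5 TPM after the dose (log2FC -0.97 ± 0.15, adjusted p = 0.00171), with no overlap. P4HA1 and P4HA2, catalytic subunits of collagen prolyl hydroxylase, and ERO1A, an oxidase of protein folding, had log2FC of -1.15, -1.02 and -0.70. LOX and LOXL2, which crosslink collagen, were at -0.53 and 0.32 and did not pass.

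All 4 chromatin members fell. KDM3A, a demethylase of histone H3 lysine 9, was at -1.02, the arginine demethylase JMJD6 at -0.71, the deacetylase partner SAP30 at -0.39 and the lysine 4 demethylase KDM5B at -0.28 in log2FC. With total gene reads in place of exon reads the log2FC of KDM5B was 0.0046. Of 4 transcription factors MXI1, an antagonist of MYC, and ZNF395 fell, by 0.64 and 0.49 on the log2 scale.

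Among the other targets, 7 of 10 fell. FUT11, a fucosyltransferase, had the lowest p of the 40, with 47.01, 41.8 and 30.4 TPM in PBS and 18.7, 12.6 and 11.6 TPM at Acute 1 h (log2FC -1.41 ± 0.18, adjusted p = 0.000461). DDIT4, an inhibitor of the growth kinase complex mTORC1, was at 1312, 792 and 537 TPM in PBS and 217, 172 and 174 TPM after the dose (log2FC -2.16 ± 0.31, adjusted p = 0.000837). WSB1, which recruits substrates to a ubiquitin ligase, was at 364, 386 and 284 TPM against 160.4, 135 and 133 TPM (log2FC -1.21 ± 0.17, adjusted p = 0.00095). The PBS libraries of DDIT4 differed widely among themselves, yet in all 3 genes each exceeded every dosed library. NDRG1, ANKRD37, TMEM45A and C4orf47 had log2FC of -1.26, -2.23, -0.85 and -1.28, and 85.0% of the reads of C4orf47 lay in its introns. The count of members called was 18 without replicate 2 or without replicate 3 of Acute 1 h.

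**Figure D2:**
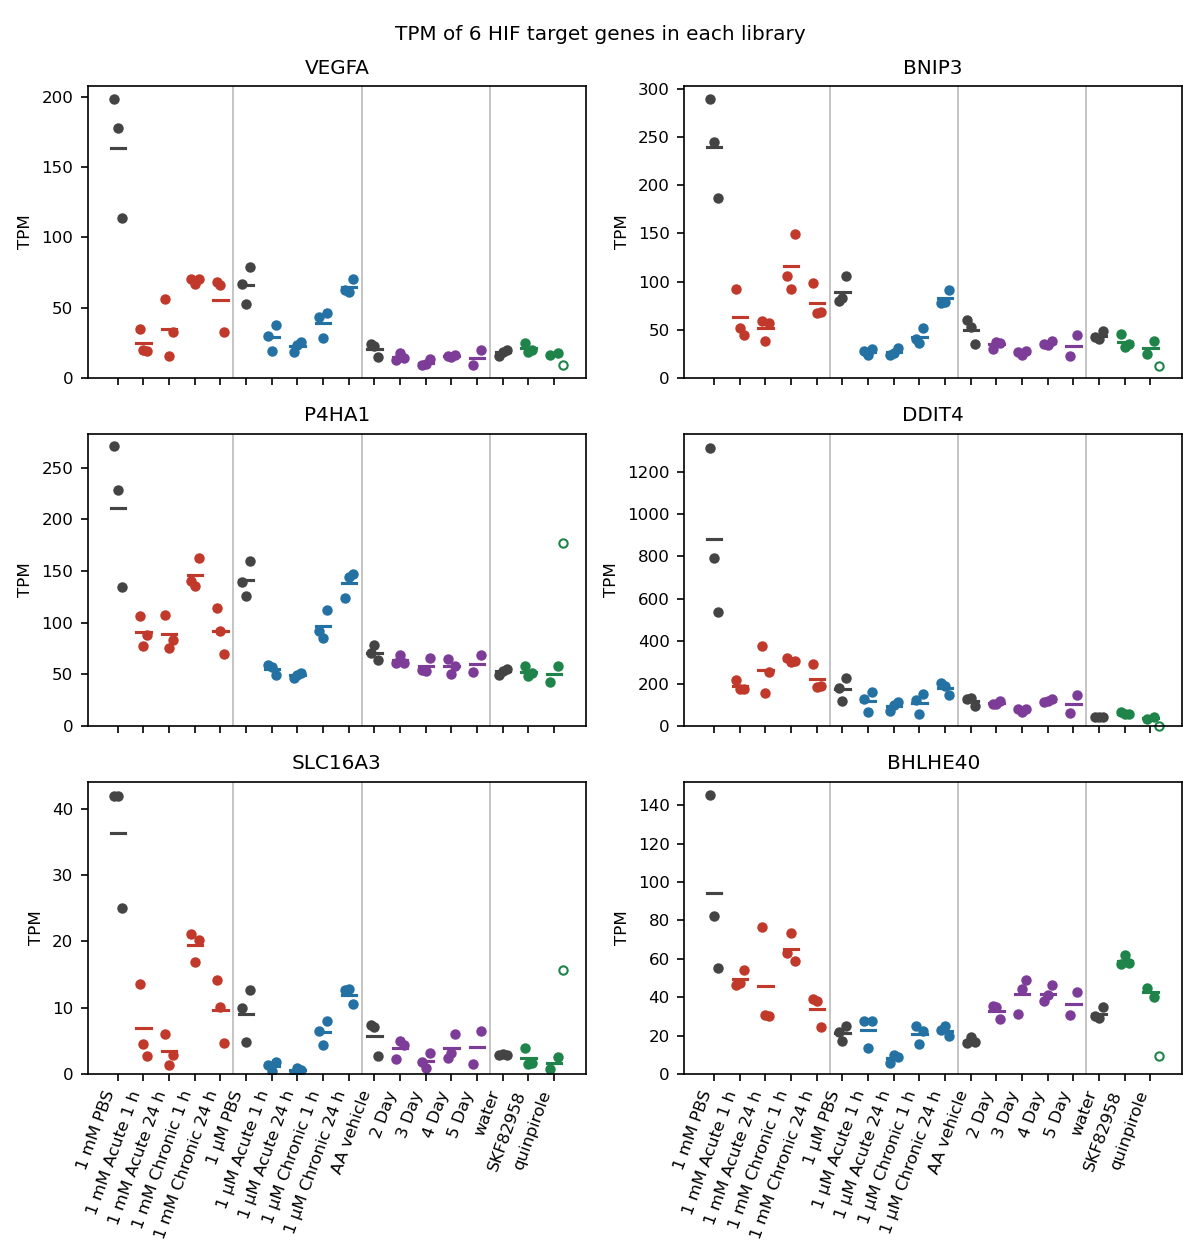
TPM (y axes, linear from 0) of VEGFA, BNIP3, P4HA1, DDIT4, SLC16A3 and BHLHE40 in each library, by condition (x axes). Points are libraries and horizontal lines group means, and the open circle is quinpirole replicate 1, left out of the mean; VEGFA is at 114 to 198 TPM in 1 mM PBS and at 18.9 to 34.7 TPM at 1 mM Acute 1 h.

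At 1 mM Acute 24 h, 29 members fell and 1 rose, where 8.38% of all genes tested were called higher and 7.09% lower, and the median log2FC was -1.13 over the members and 0.02 over all genes. Dosed libraries lay wholly below PBS for 26 of 40 members, against 11.3% of genes with a mean of at least 1 TPM. PLOD2 was at 13.5, 15.4 and 15.5 TPM (log2FC -1.49 ± 0.16, adjusted p = 0.000647), FUT11 at 17.9, 11.5 and 13.3 TPM (log2FC -1.62 ± 0.18, adjusted p = 0.000958) and BNIP3 at 59.5, 37.8 and 56.7 TPM (log2FC -2.35 ± 0.28, adjusted p = 0.000958), each below all of its PBS values given before. ADM was at 70.8, 38.6 and 16.0 TPM in PBS and 2.31, 1.54 and 2.56 TPM after 24 h (log2FC -4.39 ± 0.52, adjusted p = 0.000958). APLN was at 18.9, 10.6 and 5.72 TPM against 0.520, 0.328 and 1.29 TPM (log2FC -4.07 ± 0.51, adjusted p = 0.00108), and ANKRD37, an ankyrin repeat protein, at 52.3, 29.5 and 11.7 TPM against 2.83, 1.88 and 3.09 TPM (log2FC -3.69 ± 0.47, adjusted p = 0.00113). In these 3 genes too the groups were separate. AK4 was at 44.8, 41.3 and 28.04 TPM against 11.3, 11.6 and 13.1 TPM (log2FC -1.77 ± 0.23, adjusted p = 0.00113), and BNIP3L at 338, 302 and 274 TPM against 154, 152 and 168 TPM (log2FC -1.06 ± 0.13, adjusted p = 0.00108). Neither gene overlapped between groups.

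LOXL2 was the member called higher at 1 mM Acute 24 h, at 29.8, 6.35 and 5.24 TPM against 4.80, 4.51 and 4.17 TPM in PBS (log2FC 1.41 ± 0.45, adjusted p = 0.0495). The high value came from replicate 1, the library with high immediate early genes and low cycling and pan-neuronal markers. RAB20, ANGPTL4, PPFIA4, NARF, BHLHE40 and LOX, which had not passed at Acute 1 h, fell by 1.67, 2.71, 1.70, 0.57, 1.20 and 0.80 on the log2 scale. In a fit of these groups alone edgeR called 0 members, and without PBS replicate 1 the count was 19.

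After 5 daily doses fewer members were called. At 1 mM Chronic 1 h, 8 members fell and 0 rose, where 1.27% of all genes tested were called higher and 0.814% lower, and the median log2FC was -0.57 against 0.00 over all genes. Dosed libraries lay wholly below PBS for 17 of 40 members, against 15.8% of genes with a mean of at least 1 TPM. STC1 stood at 43.6, 26.9 and 24.3 TPM in PBS and at 12.1, 12.1 and 14.8 TPM (log2FC -1.32 ± 0.21, adjusted p = 0.00762), and SAP30 at 90.6, 81.9 and 72.4 TPM against 54.5, 50.8 and 56.5 TPM (log2FC -0.64 ± 0.12, adjusted p = 0.0166). FUT11 was at 20.2, 20.0 and 22.4 TPM (log2FC -0.97 ± 0.18, adjusted p = 0.0175) and PLOD2 at 21.7, 21.7 and 25.3 TPM (log2FC -0.80 ± 0.15, adjusted p = 0.0178). All of these lay below every PBS library. DDIT4 was at 319, 303 and 308 TPM (log2FC -1.54 ± 0.30, adjusted p = 0.0192) and ANKRD37 at 6.29, 10.9 and 8.43 TPM (log2FC -1.91 ± 0.42, adjusted p = 0.0347). BNIP3L was at 212, 181 and 240.2 TPM (log2FC -0.57 ± 0.13, adjusted p = 0.0432) and KDM3A at 42.1, 39.2 and 45.1 TPM against 94.7, 70.5 and 50.7 TPM in PBS (log2FC -0.81 ± 0.19, adjusted p = 0.0434). The dosed libraries again did not overlap PBS.

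At 1 mM Chronic 24 h, 16 members fell and 0 rose, where 0.118% of all genes tested were called higher and 0.545% lower. The median log2FC was -1.07 over the members and 0.01 over all genes, and dosed libraries lay wholly below PBS for 30 of 40 members, against 10.7% of genes with a mean of at least 1 TPM. PLOD2 was at 17.3, 16.6 and 15.6 TPM (log2FC -1.26 ± 0.15, adjusted p = 0.00741), FUT11 at 17.9, 16.5 and 16.8 TPM (log2FC -1.24 ± 0.18, adjusted p = 0.0149) and DDIT4 at 291, 186 and 191 TPM (log2FC -2.01 ± 0.30, adjusted p = 0.0165). LOX, which had not passed at either 1 h time, was at 50.4, 46.2 and 31.8 TPM in PBS and 24.6, 18.7 and 17.1 TPM (log2FC -1.11 ± 0.18, adjusted p = 0.019). STC1 was at 14.8, 9.41 and 14.9 TPM (log2FC -1.30 ± 0.21, adjusted p = 0.019) and BNIP3 at 98.5, 67.5 and 68.5 TPM (log2FC -1.65 ± 0.27, adjusted p = 0.0218). None of these overlapped PBS. ANKRD37 was at 7.15, 4.99 and 3.54 TPM (log2FC -2.59 ± 0.44, adjusted p = 0.0219) and AK4 at 19.3, 13.9 and 14.9 TPM (log2FC -1.27 ± 0.22, adjusted p = 0.0271). KDM3A, ADM, BNIP3L, P4HA1, STC2, FAM162A, RAB20 and ZNF395 made up the remaining calls.

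Both chronic counts at 1 mM depended on single libraries and on the fit. At Chronic 1 h the count was 1 without PBS replicate 1, PBS replicate 2, Chronic 1 h replicate 1 or Chronic 1 h replicate 3, and 0 without Chronic 1 h replicate 2. At Chronic 24 h it was 0 without PBS replicate 1 or PBS replicate 2, and 3, 7 and 1 without Chronic 24 h replicates 1, 2 and 3. With replicate 1 of 1 mM Acute 24 h removed from the shared fit, 21 members were called at Chronic 1 h and 30 at Chronic 24 h. At Chronic 1 h a fit of the compared groups alone called 25 members and DESeq2 15. With 1 library of the compared groups left out, calls over all genes ranged from 58 to 211 at Chronic 1 h. At Chronic 24 h they ranged from 1 to 144.

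Chronic 1 h was then set against Acute 1 h directly. By the study's methods the acute cultures were treated at an earlier day and only chronic ones had all medium replaced between doses. Repeated dosing, medium change and culture age therefore cannot be told apart here. At 1 mM, intron reads were 12.3% to 13.2% of gene reads in acute libraries and 20.6% to 20.9% in chronic ones. The part of this difference was not tested. At 1 mM, 5 members were higher after chronic dosing and 0 lower, where 5.37% of all genes tested were called higher and 5.91% lower. CA9 was at 28.3, 24.6 and 12.7 TPM after chronic dosing, above every acute library (log2FC 2.85 ± 0.59, adjusted p = 0.00817). NDRG1, a stress-responsive protein, was at 21.6, 20.5 and 20.9 TPM against 10.3, 7.87 and 7.81 TPM (log2FC 1.17 ± 0.25, adjusted p = 0.0105), and WSB1 at 246, 233 and 253 TPM (log2FC 0.67 ± 0.17, adjusted p = 0.0248). VEGFA was at 70.6, 67.2 and 70.5 TPM (log2FC 1.40 ± 0.37, adjusted p = 0.0298) and STC2 at 32.4, 34.5 and 36.3 TPM (log2FC 1.20 ± 0.34, adjusted p = 0.0362). In none of the 5 did chronic and acute libraries overlap. The count was 8 without Acute 1 h replicate 1, 1 without Acute 1 h replicate 2 or 3, 2 without any one Chronic 1 h library and 19 without replicate 1 of Acute 24 h in the fit. A fit of the compared groups alone called 27 and DESeq2 9. Calls over all genes ranged from 818 to 1217 with 1 library of the compared groups left out.

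The 1 µM experiment had PBS libraries of its own, so it shared no sample with the 1 mM one. At 1 µM Acute 1 h, 15 of 39 tested members fell and 0 rose, where 3.25% of all genes tested were called higher and 2.52% lower, and the median log2FC was -0.61 against 0.02 over all genes. KISS1R did not pass the filter on low counts. Dosed libraries lay wholly below PBS for 20 of 40 members, against 7.55% of genes with a mean of at least 1 TPM. BNIP3 was at 80.0, 82.7 and 105 TPM in PBS and 27.97, 23.8 and 30.3 TPM after the dose (log2FC -1.71 ± 0.16, adjusted p = 3.04e-05), VEGFA at 66.7, 52.9 and 78.8 TPM against 29.9, 19.2 and 37.7 TPM (log2FC -1.20 ± 0.15, adjusted p = 0.00031) and P4HA1 at 139, 126 and 159.7 TPM against 59.1, 56.7 and 49.5 TPM (log2FC -1.33 ± 0.17, adjusted p = 0.000348). SLC16A3 was at 9.94, 4.74 and 12.7 TPM against 1.34, 0.456 and 1.84 TPM (log2FC -2.90 ± 0.41, adjusted p = 0.000823). In these 4 genes every dosed library was below every PBS library. PPFIA4, a scaffold protein of the liprin family, was at 73.0, 42.4 and 74.4 TPM against 19.3, 10.8 and 31.3 TPM (log2FC -1.64 ± 0.23, adjusted p = 0.000728), and STC2 at 16.0, 13.0 and 20.3 TPM against 8.41, 5.78 and 8.15 TPM (log2FC -1.13 ± 0.18, adjusted p = 0.00224). FAM162A was at 39.0, 49.1 and 46.6 TPM against 22.7, 15.3 and 20.7 TPM (log2FC -1.24 ± 0.22, adjusted p = 0.00366), and KDM3A at 38.1, 35.1 and 43.0 TPM against 22.4, 18.7 and 26.9 TPM (log2FC -0.78 ± 0.14, adjusted p = 0.00485). The same separation held for these 4.

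AK4, P4HA2, CA12, FUT11, STC1, NDRG1 and LOX made up the remaining calls at 1 µM Acute 1 h. The members that fell at Acute 1 h at both doses numbered 12, which is 12 of the 30 at 1 mM and 12 of the 15 at 1 µM. They were VEGFA, STC1, STC2, SLC16A3, AK4, BNIP3, FAM162A, P4HA1, P4HA2, KDM3A, NDRG1 and FUT11. Of all genes tested, 1414 of 17804 were lower at 1 mM and 417 of 16541 at 1 µM. How many of these were shared was not counted, so the overlap is not shown to be particular to the members. In a fit of the compared groups alone, 1 member was called at 1 µM Acute 1 h. Other lists moved in the same libraries. Choroid plexus markers summed to 2098 to 2655 TPM in PBS and 1146 to 1516 TPM after the dose, with 3 of 4 lower, and immediate early genes to 53.0 to 144 TPM and 317 to 971 TPM, with 8 of 10 higher. PBS replicate 2 had reads in 16085 genes, against 21299 and 20989 in the others, and 6 members at 0. Acute 1 h replicate 2 had 31.2% of gene reads in introns, against 23.8% and 20.2%. The part of these in the fall was not tested, and the count of members called was 15 without PBS replicate 2 and 18 without Acute 1 h replicate 2.

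At 1 µM Acute 24 h, 19 members fell and 0 rose, where 1.40% of all genes tested were called higher and 1.91% lower. The median log2FC was -0.86 against 0.01 over all genes, and dosed libraries lay wholly below PBS for 21 of 40 members, against 9.35% of genes with a mean of at least 1 TPM. BNIP3 was at 24.2, 25.9 and 30.7 TPM (log2FC -1.80 ± 0.16, adjusted p = 0.000105), VEGFA at 18.8, 23.1 and 25.8 TPM (log2FC -1.60 ± 0.15, adjusted p = 0.000105) and P4HA1 at 46.5, 49.2 and 51.0 TPM (log2FC -1.59 ± 0.17, adjusted p = 0.000187). SLC16A3 was at 0.149, 0.877 and 0.562 TPM (log2FC -4.04 ± 0.44, adjusted p = 0.000197) and STC2 at 7.18, 5.98 and 6.92 TPM (log2FC -1.33 ± 0.18, adjusted p = 0.00152). All 5 stayed below each of their PBS libraries. LOX was at 21.7, 22.1 and 21.6 TPM in PBS against 3.97, 5.63 and 5.14 TPM (log2FC -2.23 ± 0.30, adjusted p = 0.0012), BHLHE40, a transcriptional repressor, at 22.1, 17.3 and 24.9 TPM against 5.87, 9.70 and 8.99 TPM (log2FC -1.44 ± 0.21, adjusted p = 0.00197) and AK4 at 18.0, 15.9 and 23.01 TPM against 7.14, 5.93 and 6.71 TPM (log2FC -1.56 ± 0.23, adjusted p = 0.00262). These 3 were separate from PBS too. The count was 11, 10 and 12 without Acute 24 h replicates 1, 2 and 3.

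After chronic dosing at 1 µM the counts were small. At Chronic 1 h, 4 members fell and 0 rose, where 1.75% of all genes tested were called higher and 0.834% lower, with a median log2FC of -0.29. Dosed libraries lay wholly below PBS for 15 of 40 members, against 11.3% of genes with a mean of at least 1 TPM. BNIP3 was at 40.5, 35.9 and 52.1 TPM (log2FC -1.04 ± 0.16, adjusted p = 0.00299), KDM3A at 20.3, 20.7 and 23.2 TPM (log2FC -0.81 ± 0.14, adjusted p = 0.00728), VEGFA at 43.2, 28.3 and 46.4 TPM (log2FC -0.72 ± 0.15, adjusted p = 0.0198) and STC2 at 11.0, 6.89 and 11.2 TPM (log2FC -0.72 ± 0.18, adjusted p = 0.0458). All 4 were below every PBS library. The count was 2 without PBS replicate 2, PBS replicate 3 or any one Chronic 1 h library, and 0 in a fit of the compared groups alone. At 1 µM Chronic 24 h edgeR called 0 members, and 0 had an unadjusted p under 0.05, where 0.00% of all genes tested were called higher and 0.00% lower. The median log2FC was 0.00, and dosed libraries lay wholly below PBS for 4 of 40 members, against 8.21% of genes with a mean of at least 1 TPM. BNIP3 stood at 77.6, 78.8 and 91.0 TPM and VEGFA at 62.6, 61.0 and 70.4 TPM there, both overlapping PBS.

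In the direct comparison of 1 µM Chronic 1 h with Acute 1 h, 4 members were higher after chronic dosing and 1 lower. Of all genes tested, 0.556% were called higher and 0.647% lower. Repeated dosing, medium change and culture age cannot be told apart here either. SLC16A3 was at 6.48, 4.30 and 8.04 TPM after chronic dosing (log2FC 2.43 ± 0.41, adjusted p = 0.011), NDRG1 at 10.8, 8.33 and 13.8 TPM against 6.80, 2.62 and 6.29 TPM (log2FC 1.13 ± 0.22, adjusted p = 0.0225) and P4HA1 at 91.5, 85.3 and 112 TPM (log2FC 0.81 ± 0.17, adjusted p = 0.0313). Each was above every acute library. P4HA2 was at 5.29, 3.64 and 5.42 TPM against 2.55, 1.18 and 2.67 TPM (log2FC 1.22 ± 0.26, adjusted p = 0.0386), and WSB1 was the lower one, at 158, 144 and 171 TPM against 233, 231 and 257 TPM (log2FC -0.58 ± 0.13, adjusted p = 0.0485). These groups did not overlap either. The count of 5 was 2, 3 and 3 without Acute 1 h replicates 1, 2 and 3, and 1, 2 and 0 without Chronic 1 h replicates 1, 2 and 3.

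**Figure D3:**
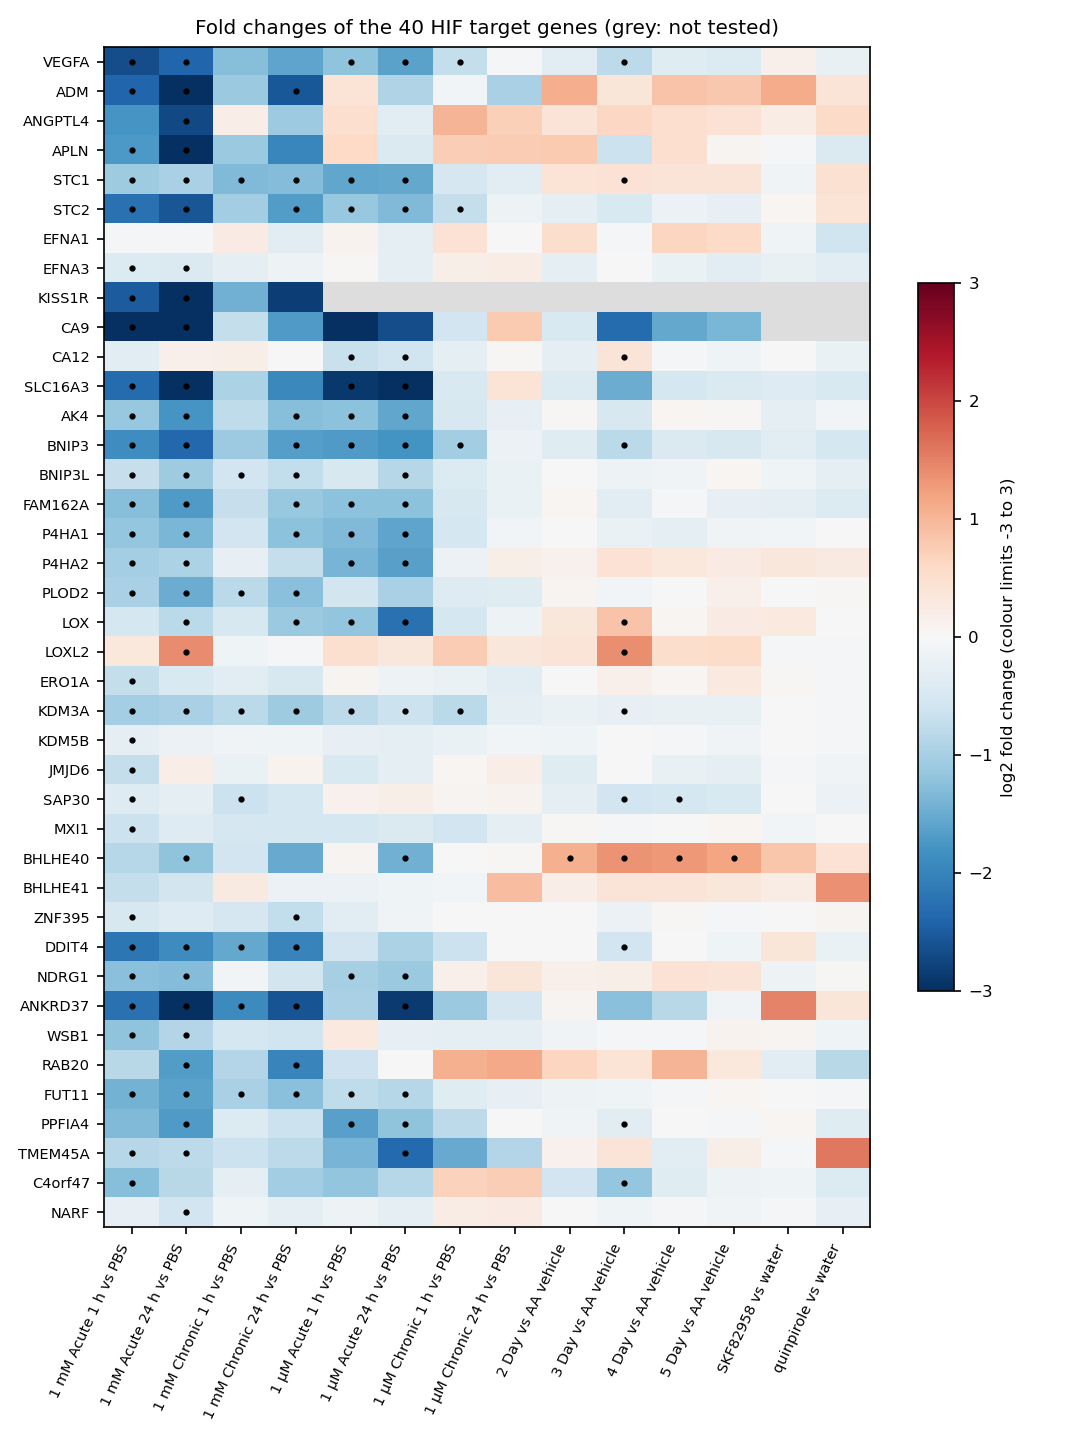
Log2 fold change (colour, blue lower and red higher, limits -3 to 3) of the 40 HIF target genes (rows) in 14 comparisons with PBS, AA vehicle or water (columns), with black dots at an adjusted p under 0.05 and grey cells where a gene was not tested. The single-dose columns hold 30 and 30 dots at 1 mM and 15 and 19 at 1 µM, and the agonist columns hold 0.

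The doses were compared by the interaction of both experiments, in which dose and experiment cannot be told apart. At Acute 1 h, 2 members had a lower change at 1 mM and 0 a higher one, where 1.09% of all genes tested were called higher and 0.919% lower. WSB1 at 1 µM was at 233, 231 and 257 TPM, above its PBS libraries at 199, 179 and 216 TPM, while at 1 mM every dosed library was below PBS. The difference of the log2FC was -1.48 ± 0.22 (SE, adjusted p = 0.000477 by edgeR) for WSB1 and -1.56 ± 0.40 (SE, adjusted p = 0.0389 by edgeR) for DDIT4, which at 1 µM was at 180.2, 119 and 228 TPM in PBS and 129, 64.8 and 159 TPM after the dose. The count was 1 without any one of PBS replicate 1 or 2 and Acute 1 h replicate 2 or 3 at 1 mM, or PBS replicate 1 or 2 and Acute 1 h replicate 1 or 3 at 1 µM. At Chronic 1 h edgeR called 0 members, where 0.0653% of all genes tested were called higher and 0.0218% lower, and 6 had an unadjusted p under 0.05.

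In the time course the dosed cultures were set against AA vehicle. The median log2FC of the 39 tested members was 0.00, -0.09, -0.03 and 0.04 at 2, 3, 4 and 5 Day. At 2 Day 1 member rose and 0 fell, where 1.89% of all genes tested were called higher and 1.99% lower. At 3 Day 5 rose and 7 fell, where 4.77% of all genes tested were called higher and 2.60% lower. At 4 Day 1 rose and 1 fell, where 2.58% of all genes tested were called higher and 1.80% lower, and at 5 Day 1 rose and 0 fell, where 1.23% of all genes tested were called higher and 0.406% lower. With no filter on low counts the members called numbered 7, 6 and 6 at 2, 4 and 5 Day, and in fits of the compared groups alone 5 at 2 Day and 4 at 4 Day.

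BHLHE40, a repressor that also follows daily rhythms and neuronal activity, was the member that rose at all 4 times. It was at 16.2, 19.4 and 16.5 TPM in AA vehicle and at 35.6, 34.7 and 28.8 TPM at 2 Day (log2FC 1.06 ± 0.16, adjusted p = 0.00177). It stood at 31.1, 44.3 and 49.1 TPM at 3 Day (log2FC 1.35 ± 0.15, adjusted p = 0.000118), at 37.8, 41.4 and 46.2 TPM at 4 Day (log2FC 1.29 ± 0.15, adjusted p = 0.000313) and at 30.8 and 42.5 TPM at 5 Day (log2FC 1.19 ± 0.17, adjusted p = 0.00211). No dosed library overlapped AA vehicle. Immediate early genes moved with it, at 133 to 139 TPM in sum in AA vehicle and 414 to 614 TPM in the dosed libraries, and their part was not tested.

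At 3 Day both directions occurred. LOX was at 9.11, 9.42 and 8.29 TPM in AA vehicle and 14.1, 14.7 and 16.6 TPM at 3 Day (log2FC 0.86 ± 0.10, adjusted p = 0.00019). LOXL2 was at 4.77, 7.10 and 8.12 TPM against 6.62, 18.5 and 24.0 TPM (log2FC 1.40 ± 0.37, adjusted p = 0.0318), and CA12 at 37.9, 34.9 and 37.2 TPM against 40.9, 46.1 and 48.4 TPM (log2FC 0.40 ± 0.10, adjusted p = 0.0265). LOX and CA12 were separate between groups, and LOXL2 overlapped. BNIP3 was at 60.3, 52.7 and 35.7 TPM in AA vehicle and 27.4, 23.8 and 27.5 TPM at 3 Day (log2FC -0.82 ± 0.16, adjusted p = 0.00668), SAP30 at 66.7, 61.8 and 69.4 TPM against 45.2, 38.5 and 41.5 TPM (log2FC -0.56 ± 0.13, adjusted p = 0.0151) and VEGFA at 23.8, 22.7 and 14.8 TPM against 9.55, 10.0 and 13.3 TPM (log2FC -0.80 ± 0.18, adjusted p = 0.0165). No 3 Day library of these 3 genes reached AA vehicle. STC1 was at 14.54, 14.0 and 13.6 TPM against 18.8, 16.1 and 18.4 TPM (log2FC 0.43 ± 0.12, adjusted p = 0.0347), and DDIT4, C4orf47, PPFIA4 and KDM3A fell by 0.57, 1.17, 0.34 and 0.24 on the log2 scale.

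The 7 fibroblast or mesenchymal markers summed to 362 to 721 TPM at 3 Day and 216 to 284 TPM in AA vehicle, and their part in the rise of LOX and LOXL2 was not tested. The count at 3 Day was 3 without 3 Day replicate 2 or AA vehicle replicate 1, and 4 without 3 Day replicate 3 or AA vehicle replicate 2. At 4 Day, SAP30 fell to 52.8, 41.4 and 40.8 TPM (log2FC -0.53 ± 0.13, adjusted p = 0.0306), and the count was 1 without 4 Day replicate 3, AA vehicle replicate 1 or AA vehicle replicate 2. At 5 Day it was 3 without 5 Day replicate 3.

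The 5 daily 1 mM doses read at 1 h occur in both 1 mM designs, once against PBS and once against AA vehicle. The change against PBS was lower than that against AA vehicle for 4 members and higher for 0, where 0.223% of all genes tested were called higher and 0.441% lower. STC1 was at 16.4 and 17.0 TPM at 5 Day and 14.54, 14.0 and 13.6 TPM in AA vehicle, a log2FC of 0.38, beside -1.32 against PBS. PLOD2 was at 9.90 and 14.1 TPM against 12.1, 13.0 and 10.0 TPM, and FUT11 at 11.8 and 19.9 TPM against 17.8, 15.8 and 15.4 TPM. The differences of the log2FC (SE) were -1.72 ± 0.27 for STC1 with an adjusted p of 0.00209 by edgeR, -1.03 ± 0.23 for FUT11, -0.96 ± 0.22 for PLOD2 and -1.77 ± 0.42 for BHLHE40. BHLHE40 was at 145, 82.4 and 55.4 TPM in 1 mM PBS and 63.1, 73.6 and 58.8 TPM at Chronic 1 h, against the rise at 5 Day given before. Control agent and experiment cannot be told apart here. The count was 8 without PBS replicate 3, 2 without Chronic 1 h replicate 3, 5 Day replicate 2 or AA vehicle replicate 2, and 1 without any one of PBS replicate 1 or 2, Chronic 1 h replicate 1 or 2, 5 Day replicate 3 and AA vehicle replicate 1 or 3.

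With the receptor agonists edgeR called no member. For SKF82958 the count was 0 of 38 tested, where 0.0124% of all genes tested were called higher and 0.00% lower, and 3 members had an unadjusted p under 0.05. For quinpirole it was 0 of 38, where 0.00% of all genes tested were called higher and 0.00% lower, with 1 member at an unadjusted p under 0.05 and 0 called by DESeq2. KISS1R and CA9 did not pass the filter here. BHLHE40 was at 30.3, 29.0 and 35.02 TPM in water and 57.2, 62.2 and 57.8 TPM with SKF82958, with no overlap and a log2FC of 0.83 ± 0.20 that did not pass. VEGFA was at 15.7, 18.8 and 20.0 TPM in water, 25.1, 18.5 and 20.0 TPM with SKF82958 and 16.4 and 18.0 TPM in quinpirole replicates 2 and 3. With quinpirole replicate 1 taken out of the fit, which was decided once the data had been seen, 2 members were called with SKF82958.

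The controls differed among themselves. In 1 mM PBS, 29 members were higher than in AA vehicle and 0 lower, where 15.1% of all genes tested were called higher and 14.2% lower, and the median log2 difference was 1.27 against 0.00 over all genes. VEGFA, at the AA vehicle values given before, differed by 2.75 ± 0.20 (SE, adjusted p = 5.36e-06 by edgeR). STC2 was at 8.78, 10.1 and 5.21 TPM in AA vehicle (log2FC 2.86 ± 0.25, adjusted p = 2.01e-05) and WSB1 at 117, 119.7 and 99.9 TPM (log2FC 1.38 ± 0.13, adjusted p = 2.43e-05). NDRG1 was at 24.9, 22.8 and 17.6 TPM in 1 mM PBS and 6.93, 7.24 and 5.44 TPM in AA vehicle (log2FC 1.49 ± 0.14, adjusted p = 2.43e-05), and DDIT4 was at 129, 133 and 95.5 TPM in AA vehicle (log2FC 2.64 ± 0.26, adjusted p = 3.51e-05). For each of these genes, and for LOX (log2FC 2.01 ± 0.18, adjusted p = 2.18e-05), BNIP3 (log2FC 2.04 ± 0.19, adjusted p = 2.97e-05) and PLOD2 (log2FC 1.49 ± 0.15, adjusted p = 4.08e-05), every 1 mM PBS library was above every AA vehicle library. In the same contrast 3 of 5 astrocyte, 3 of 7 fibroblast or mesenchymal and 4 of 12 striatal markers were lower, and their part was not tested.

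In 1 µM PBS, 19 members were higher and 3 lower than in AA vehicle, where 22.9% of all genes tested were called higher and 23.2% lower. The median log2 difference was 0.56 against -0.02. PPFIA4 was at 73.0, 42.4 and 74.4 TPM in 1 µM PBS and 31.7, 29.7 and 22.98 TPM in AA vehicle (log2FC 1.23 ± 0.13, adjusted p = 2.34e-05), and VEGFA differed by 1.78 ± 0.20 (SE) and LOX by 1.39 ± 0.18 (SE). KDM5B was at 96.9, 68.7 and 92.0 TPM against 68.1, 64.6 and 60.3 TPM (log2FC 0.49 ± 0.07, adjusted p = 0.000112), WSB1 differed by 0.92 ± 0.13 (SE), BNIP3L was at 210.1, 226 and 237 TPM against 135, 132 and 103 TPM (log2FC 0.98 ± 0.14, adjusted p = 0.000167) and PLOD2 at 21.5, 21.02 and 22.9 TPM against 12.1, 13.0 and 10.0 TPM (log2FC 1.00 ± 0.15, adjusted p = 0.000233). The lower ones were CA12, at 23.3, 17.1 and 24.6 TPM against 37.9, 34.9 and 37.2 TPM (log2FC -0.69 ± 0.09, adjusted p = 7.04e-05), BHLHE41 (log2 difference -2.04) and ANGPTL4, a regulator of lipoprotein lipase (log2 difference -2.29). BHLHE41, called in no comparison with PBS, was under 1 TPM in each 1 µM PBS library. Markers of other cells differed in the same contrast, with 5 of 5 astrocyte, 6 of 7 fibroblast or mesenchymal and 7 of 12 striatal markers lower and 3 of 3 cycling markers higher, and their part was not tested.

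The PBS groups of the doses also differed, with 25 members higher in 1 mM PBS and 2 lower, where 15.7% of all genes tested were called higher and 15.6% lower, and a median log2 difference of 0.65 against 0.02. CA12 (log2FC 0.94 ± 0.09, adjusted p = 1.42e-05), DDIT4 (log2FC 2.02 ± 0.25, adjusted p = 0.00012) and STC2 (log2FC 1.75 ± 0.24, adjusted p = 0.000228) were higher in 1 mM PBS. ADM was at 1.60, 0 and 1.91 TPM in 1 µM PBS, with 0 reads in replicate 2 (log2FC 4.90 ± 0.67, adjusted p = 0.000208). BHLHE40 (log2FC 1.81 ± 0.26, adjusted p = 0.000317), BNIP3 (log2FC 1.08 ± 0.19, adjusted p = 0.00114) and NDRG1, at 11.0, 7.49 and 12.3 TPM in 1 µM PBS (log2FC 0.77 ± 0.14, adjusted p = 0.00114), were higher too, and KDM5B, at 83.2, 76.5 and 73.0 TPM in 1 mM PBS, was lower (log2FC -0.47 ± 0.07, adjusted p = 0.00031). The count of 27 was 14 without 1 mM PBS replicate 1 and 13 in a fit of these groups alone. Beside it, 3 of 5 astrocyte and 5 of 7 fibroblast or mesenchymal markers were higher in 1 mM PBS and 3 of 3 cycling markers lower, and their part was not tested.

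In water, 3 members were higher and 6 lower than in AA vehicle, where 6.73% of all genes tested were called higher and 9.17% lower, with a median log2 difference of -0.11 against -0.02. NDRG1 was at 13.2, 14.4 and 13.9 TPM in water (log2FC 1.12 ± 0.14, adjusted p = 0.000187), SAP30 at 27.1, 31.4 and 32.0 TPM (log2FC -1.09 ± 0.17, adjusted p = 0.000867) and DDIT4 at 42.3, 43.1 and 41.8 TPM (log2FC -1.44 ± 0.27, adjusted p = 0.00305). None of the 3 overlapped AA vehicle. PPFIA4 was at 44.5, 41.1 and 47.8 TPM (log2FC 0.71 ± 0.13, adjusted p = 0.00355), ZNF395 at 16.9, 15.9 and 17.7 TPM against 29.2, 30.2 and 23.3 TPM (log2FC -0.66 ± 0.14, adjusted p = 0.00575) and KDM5B at 49.0, 51.5 and 51.5 TPM (log2FC -0.30 ± 0.07, adjusted p = 0.00893). BHLHE40 and STC2, which was at 3.71, 4.01 and 4.73 TPM, differed by 0.90 ± 0.26 and -0.91 ± 0.28 (SE), and KDM3A by -0.55 ± 0.17 (SE). Immediate early genes summed to 1259 to 1514 TPM in water and 133 to 139 TPM in AA vehicle, 3 of 3 cycling markers were lower and 4 of 12 striatal markers higher, and their part was not tested. A fit of these groups alone called 17 members. In all 4 control comparisons the control agent and the experiment cannot be told apart.

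Genes of the same pathway were counted in the same fits. Of 20 glycolytic HIF targets, 17 fell at 1 mM Acute 1 h, 19 at Acute 24 h, 1 at Chronic 1 h and 9 at Chronic 24 h. Of all genes tested, 7.94%, 7.09%, 0.814% and 0.545% were called lower at these times, and 8.04%, 8.38%, 1.27% and 0.118% higher. At 1 µM, 13, 12, 3 and 0 fell at the same times, and 0 rose at these times at either dose. Of all genes tested at 1 µM, 2.52%, 1.91%, 0.834% and 0.00% were called lower, and 3.25%, 1.40%, 1.75% and 0.00% higher. PDK1, which keeps pyruvate out of the citric acid cycle, had a log2FC of -2.19 at 1 mM Acute 1 h and -1.44 at 1 µM Acute 1 h. In 1 mM PBS, 17 of the 20 were higher than in AA vehicle, where 15.1% of all genes tested were called higher and 14.2% lower. In the HIF machinery, HIF1A had a log2FC of -0.02 at 1 mM Acute 1 h and did not pass. EPAS1, which encodes HIF-2 alpha, rose by 1.12 at that time, and the prolyl hydroxylase EGLN1 and HIF3A fell by 0.54 and 0.79 on the log2 scale. The mean of EPAS1 was 9.05 TPM in 1 mM PBS, 18.7 at Acute 1 h, 11.7 at Acute 24 h, 9.95 at Chronic 1 h and 7.52 at Chronic 24 h. These genes are part of a longer list of HIF machinery. Its other genes, and its counts called in each direction, are not given here, so these values do not describe the list.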

How the data were processed

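In CLC Genomics Workbench the authors aligned trimmed reads to the human genome hg38 with Ensembl genes, and they deposited 1 table per library. Per gene, the deposited tables give read counts (exon, intron, total) and TPM, which the authors computed from exon reads and exon length. The strand setting is not given in the sources used here, and 26 members overlap another annotated gene, so their counts can include its reads. Which of the sequencing providers ran each library is not given either, so no batch was modelled.

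Groups were taken from the sample labels. The test on exon read counts was the quasi-likelihood test of edgeR 4.0.16 under R 4.3.3 (filterByExpr with a minimum count of 10 and a minimum total of 15, TMM, glmQLFit, glmQLFTest), with all conditions of an experiment in 1 fit and Benjamini-Hochberg adjustment over all genes tested in a comparison. A member was called at an adjusted p under 0.05. SE was taken as |log2FC| over the root of the F statistic. In each comparison up to 8 called members with the lowest p were named with values. The members and lists were chosen with earlier results of these data known. For the 1 mM Acute 1 h comparison, the test recovered 100% of genes changed 4-fold and 90% of those changed 2-fold in simulated data, on 17800 genes. It made 13 false calls there. Only genes with many reads were changed, and all genes were given the same spread. These shares therefore do not carry over to members with few reads or a wide spread. Alternatives were total gene reads, DESeq2 1.42.0 (its test, and its size factors), other count filters, fits of only the groups compared, the replicate number as a block, and each library left out. Fits without quinpirole replicate 1 were added once the data had been seen. Promoters are RefSeq windows (GRCh38.p14). Tables and figures used Python 3.11.15, pandas 2.3.3 and matplotlib 3.10.9.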

Additional observations from a re-analysis of the deposited data

Results flagged for a closer look

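Members whose change differed between groups by a test of the difference itself were the following. At Acute 1 h the change against PBS was lower at 1 mM than at 1 µM for DDIT4 (difference of log2 fold changes -1.56) and WSB1 (-1.48). WSB1 fell at 1 mM, while its 1 µM libraries lay above PBS. The change at 1 mM Chronic 1 h against PBS was lower than that at 5 Day against AA vehicle for STC1 (-1.72), PLOD2 (-0.96), BHLHE40 (-1.77) and FUT11 (-1.03). In each of these the groups also differ in experiment, which cannot be told apart from dose or control.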

How the results depend on the processing

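The counts of members called were recomputed under each alternative. Calls over all genes are given below only for fits with 1 library left out. For the other alternatives a change in the members cannot be told apart from a change over all genes. In fits of only the groups compared, the count was 0 at 1 mM Acute 24 h, 25 at 1 mM Chronic 1 h, 27 for 1 mM Chronic 1 h against Acute 1 h, 1 at 1 µM Acute 1 h, 0 at 1 µM Chronic 1 h, 0 for 1 µM Chronic 1 h against Acute 1 h, 5 at 2 Day, 4 at 4 Day, 3 with SKF82958, 1 for the dose difference at Acute 1 h, 8 for the contrast of Chronic 1 h with 5 Day, 17 for water against AA vehicle and 13 for 1 mM PBS against 1 µM PBS. With DESeq2's test it was 15 at 1 mM Chronic 1 h, 9 for Chronic 1 h against Acute 1 h at each dose and 2 at 2 Day, and with its size factors 2 at 2 Day. Without a filter it was 7 at 2 Day and 6 at 4 Day and at 5 Day, and with at least 10 reads in every library 3 at 2 Day. With total gene reads it was 2 at 2 Day, 7 at 3 Day, 4 for the dose difference at Acute 1 h and 1 for the contrast of Chronic 1 h with 5 Day, and KDM5B at 1 mM Acute 1 h was at 0.0046 (adjusted p = 0.972 by edgeR). Dropping replicate 1 of 1 mM Acute 24 h gave 21 at 1 mM Chronic 1 h, 30 at 1 mM Chronic 24 h, 19 for 1 mM Chronic 1 h against Acute 1 h and 9 for the contrast of Chronic 1 h with 5 Day. Without quinpirole replicate 1, an alternative added once the data had been seen, SKF82958 had 2 members called, and 1 with total gene reads as well. The cause of these changes was not tested.

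Replicate numbers showed no pairing on average. Correlations of same-numbered deviations averaged 0.00, 0.02, -0.01 and -0.02 in the 1 mM, 1 µM, time course and agonist fits. Single correlations ranged from -0.301 to 0.446 at 1 µM, so an average cannot exclude pairing within some groups. With the replicate block the count was 8 for 1 mM Chronic 1 h against Acute 1 h and 2 for the contrast of Chronic 1 h with 5 Day.

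With 1 library of the compared groups left out, counts ranged from 18 to 31, 19 to 34, 0 to 7 and 0 to 19 at the 1 mM times (acute at 1 h and 24 h, then chronic at 1 h and 24 h), and from 1 to 8 for Chronic 1 h against Acute 1 h. At 1 µM they ranged from 14 to 18, 10 to 17, 2 to 3 and 0 to 0, and from 0 to 3 for Chronic 1 h against Acute 1 h. They ranged from 1 to 1, 3 to 11, 1 to 2 and 1 to 3 at 2, 3, 4 and 5 Day, from 1 to 3 for the dose difference at Acute 1 h, from 1 to 8 for the contrast of Chronic 1 h with 5 Day, and were 0 for each agonist against water and for the dose difference at Chronic 1 h. Libraries of other groups in the shared fit are not part of these ranges. For the controls they ranged from 24 to 28 (1 mM PBS against AA vehicle), 16 to 26 (1 µM PBS), 6 to 8 (water) and 14 to 31 (1 mM PBS against 1 µM PBS). Calls over all genes moved too, from 1229 to 1788, 491 to 4690, 58 to 211 and 1 to 144 at the 1 mM times. At the 1 µM times they ranged from 530 to 1108, 141 to 265, 147 to 273 and 0 to 0. For quinpirole against water, edgeR recovered 5% of genes changed 2-fold in simulated data, so changes of that size were mostly not detectable there.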
